A study of Mus musculus with 13 samples.

Results

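Cd74, H2-Aa, H2-Ab1, H2-Eb1, Ciita, Cd207 and Epcam, 7 of the 27998 genes in the count matrices, were chosen by symbol as the MHC class II and Langerhans genes and were followed in skin cells positive for C1q or Tyrobp. A cell was called positive when it held 3 or more unique molecular identifiers (UMIs, each 1 captured mRNA molecule) summed over C1qa, C1qb, C1qc and Tyrobp, and the cells with 0 UMIs of these 4 genes served as background and are called other cells. Of the 81449 cells kept in 12 libraries, 6618 were positive and 62457 were other cells. The study sequenced single cells of C57BL/6 mouse skin by the droplet method of 10x Genomics, from wild type (WT) animals and from littermates that lack Grhl3 in the whole body (Grhl3-/-). Whole back skin was taken at E14.5 and E16.5 and epidermis at P0, a time point that the methods call E18.5/P0, with 2 libraries per genotype and age. The 2 libraries of a group came from animals of different sex, and the back skin was taken away from the open neural tube of the mutants. A further P0 WT library of the older Chromium v1 chemistry stood alone in its group and was added to P0 WT only as an alternative.

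MHC class II molecules display peptides from endocytosed proteins to CD4 T cells. An alpha and a beta chain pair in the endoplasmic reticulum with the invariant chain Cd74, and the factor Ciita switches the whole gene set on in professional antigen-presenting cells. Langerhans cells are the resident antigen-presenting cells of the epidermis. They descend from embryonic macrophage precursors that settle in the skin before birth, and they are known for the lectin Cd207 (langerin) and for Epcam, an adhesion protein that they share with keratinocytes.

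The positions are gene bodies of protein coding genes (GENCODE vM21 on GRCm38). H2-Ab1 at chr17:34257689-34269419 on the plus strand, H2-Aa at chr17:34282744-34287823 on the minus strand and H2-Eb1 at chr17:34305867-34316674 on the plus strand sat together in the class II region. Epcam lay on the same chromosome at chr17:87635979-87651129 on the plus strand. Ciita was at chr16:10480059-10528418 (plus strand) and Cd207 at chr6:83671215-83677857 (minus strand). Upstream sequences of H2-Aa, H2-Eb1, Cd207 and Epcam, the 4 members with an entry in the RefSeq table, are shown because all 4 genes were higher at P0 and the class II promoters are the textbook place of the X and Y boxes through which Ciita acts. Each is the 250 bases before the RefSeq start (GRCm38.p6), read 5′ to 3′ on the gene's strand, with matches to 3 motifs in capitals.
H2-Aa, chr17:34287824-34288073, minus strand: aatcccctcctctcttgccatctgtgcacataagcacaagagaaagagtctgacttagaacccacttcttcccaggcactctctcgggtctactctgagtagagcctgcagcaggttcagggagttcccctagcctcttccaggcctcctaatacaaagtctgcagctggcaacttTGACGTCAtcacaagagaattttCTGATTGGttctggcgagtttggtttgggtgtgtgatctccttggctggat
H2-Eb1, chr17:34305617-34305866, plus strand: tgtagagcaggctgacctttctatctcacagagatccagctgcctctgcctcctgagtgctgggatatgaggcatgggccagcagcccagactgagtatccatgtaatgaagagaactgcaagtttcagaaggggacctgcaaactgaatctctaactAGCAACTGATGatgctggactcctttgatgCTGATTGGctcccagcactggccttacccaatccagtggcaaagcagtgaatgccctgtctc
Cd207, chr6:83677858-83678107, minus strand: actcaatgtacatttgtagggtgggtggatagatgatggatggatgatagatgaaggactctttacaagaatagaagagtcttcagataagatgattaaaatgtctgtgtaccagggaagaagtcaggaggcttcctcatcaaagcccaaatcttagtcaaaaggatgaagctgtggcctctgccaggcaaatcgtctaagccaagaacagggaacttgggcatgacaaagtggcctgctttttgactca
Epcam, chr17:87635729-87635978, plus strand: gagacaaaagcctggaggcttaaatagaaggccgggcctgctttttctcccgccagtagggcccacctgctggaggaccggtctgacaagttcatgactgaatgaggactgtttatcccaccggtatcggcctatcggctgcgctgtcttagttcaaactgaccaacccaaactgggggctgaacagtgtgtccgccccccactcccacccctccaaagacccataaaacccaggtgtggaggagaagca

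The motifs were the Y box CTGATTGG, bound by NF-Y, the X box core, bound by RFX and found as AGCAACTGATG in H2-Eb1 with the third, the fourth and the seventh letter free in the search, and the cyclic AMP response element TGACGTCA of the X2 box, all searched on both strands. They occurred in 3.83%, 0.816% and 1.55% of the 32851 upstream windows of the same length in the table. The Y box lay 51 to 44 bases before the start in H2-Aa and 62 to 55 bases before it in H2-Eb1. The X2 element of H2-Aa lay 74 to 67 bases before the start and the X box core of H2-Eb1 92 to 82 bases before it, and none of the 3 motifs was found in the Cd207 and Epcam windows. No sequence is shown for Cd74, H2-Ab1 and Ciita.

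The 12 libraries held 57270821 to 107038146 UMIs before filtering, and 49581034 to 105580896 UMIs in 5267 to 9157 cells after it, and pairs of libraries shared at most 1.57% of the barcodes of the smaller one. Positive cells made up 5.15 to 10.1% of the cells, 310 to 736 per library in the 12 libraries tested, with a median of 6181 to 11572 UMIs per cell against 7338 to 9529.5 in other cells. The makeup of the positive cells differed between ages. Among positive cells with fewer than 3 C1q UMIs, mast cell genes (Cpa3, Cma1 and Mcpt4, 3 or more UMIs) marked 629 of all 1640 positive cells at E14.5, 766 of 2291 at E16.5 and 0 of 2687 at P0, whereas T cell receptor complex genes (Cd3d, Cd3e and Cd3g, 2 or more UMIs) marked 44, 40 and 299. Before birth the marks were not separate, since the cells with T cell receptor complex genes held 4899 CPM (counts of a gene per 1000000 UMIs) of Cpa3 at E14.5 and 11802 at E16.5, against 6101 and 15674 in the cells with mast cell genes alone. Cells with 3 or more C1q UMIs were 41.2 to 57.1% of the positive cells of the embryonic libraries and 78.9 to 88.0% of those at P0. The P0 shares were 88.0 and 84.1% in WT and 81.3 and 78.9% in Grhl3-/-. Since age, dissected tissue and these classes of cells changed together, they cannot be told apart in any comparison of P0 with E16.5, and in summed counts fewer cells of a type and less RNA per cell cannot be told apart either. Grhl3 itself stood at 4.03 and 6.65 CPM in WT against 1.47 and 0.693 in Grhl3-/- at E16.5 and at 7.0 and 8.29 against 2.42 and 2.81 at P0, but at 4.42 and 7.30 in WT against 4.08 and 9.89 in the libraries labelled Grhl3-/- at E14.5, so the gene did not check the labels at that age. For E14.5, Grhl3-/- stands for the label throughout. All 4 Langerhans markers (Cd207, Epcam, H2-M2 and Ltc4s) were detected in the positive cells of every P0 library, and 2 or 3 of them in the embryonic ones.

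The 4 structural class II genes were higher at each later age. Cd74, the invariant chain (chr18:60803848-60812652, plus strand), stood at 321 and 308 CPM in the positive cells of WT 1 and WT 2 at E14.5 and at 401 and 323 in the libraries labelled Grhl3-/-. At E16.5 Cd74 reached 1102 and 599 in WT and 705 and 678 in Grhl3-/-, and at P0 3683 and 2778 in WT and 4142 and 3672 in Grhl3-/-. The ages did not overlap, and the higher WT library at E16.5 was WT 1. The share of all genes with such separate ages was not counted, for Cd74 or for the genes below. Other cells held 1.61 to 8.38 CPM of Cd74 before birth and 5.26 to 11.2 at P0. A Cd74 UMI was found in 20.6 to 36.3% of positive cells before birth and in 78.0 to 81.7% at P0, against 1.14 to 4.42% and 5.16 to 10.5% of other cells.

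H2-Aa, the alpha chain of I-A, was at 87.0 and 59.5 CPM in WT and 115 and 81.5 in Grhl3-/- positive cells at E14.5. It was at 362 and 160 in WT and 198 and 158 in Grhl3-/- at E16.5, and at 1074 and 766 in WT and 1223 and 1208 in Grhl3-/- at P0. Again the ages formed 3 separate ranges.

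H2-Ab1, the beta chain that pairs with H2-Aa, went from 101.0 and 48.6 (WT) and 91.5 and 72.9 (Grhl3-/-) CPM at E14.5 through 358 and 165 (WT) and 190 and 159 (Grhl3-/-) at E16.5 to 1267 and 881 (WT) and 1446 and 1359 (Grhl3-/-) at P0. H2-Eb1, the beta chain of I-E, went from 65.4 and 29.3 (WT) and 69.2 and 48.5 (Grhl3-/-) through 252 and 89.4 (WT) and 124 and 111 (Grhl3-/-) to 837 and 524 (WT) and 902 and 848 (Grhl3-/-). C57BL/6 mice make H2-Eb1 mRNA but carry no working I-E alpha chain gene, so this transcript has no surface product in the strain. For both genes no library of one age reached into the range of the next. Here too the share of all genes so ordered was not counted.

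Ciita, the master regulator, was scarce. Its UMIs in positive cells numbered 0 and 1 (WT) and 3 and 1 (Grhl3-/-) at E14.5, 6 and 3 (WT) and 9 and 4 (Grhl3-/-) at E16.5, and 22 and 22 (WT) and 33 and 60 (Grhl3-/-) at P0. In CPM the P0 libraries held 5.0 and 2.99 (WT) and 4.45 and 7.46 (Grhl3-/-), all above the 0.694 to 1.75 of the E16.5 libraries. Of the 112 Ciita-bearing positive cells at P0, 103 held 10 or more UMIs of H2-Aa, H2-Ab1 and H2-Eb1 together, as did 19 of 20 at E16.5 and 3 of 4 at E14.5.

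Cd207 was not detected in the positive cells of any embryonic library. In 310 to 651 positive cells per library, 0 cells allow a share with a UMI of up to 0.461 to 0.968% (3 cells of the library's total, counting error only). At P0 the gene gave 31 and 99 UMIs in WT and 89 and 22 in Grhl3-/-, or 7.05 and 13.5 CPM and 12.01 and 2.74 CPM, so that the genotypes overlapped and the lowest library was Grhl3-/- 2. These UMIs came from 11 and 18 cells in WT and 21 and 8 in Grhl3-/-, which is 1.93 and 2.74% and 2.89 and 1.09% of the positive cells. Among other cells 2 UMIs were counted at P0 and 2 at E14.5, both of the latter in libraries labelled Grhl3-/-.

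Epcam, which keratinocytes also make, was found in other cells at every age. Positive cells held 1.15 and 5.22 (WT) and 2.58 and 9.83 (Grhl3-/-) CPM at E14.5, 8.91 and 13.8 (WT) and 4.28 and 4.68 (Grhl3-/-) at E16.5, and 197 and 203 (WT) and 162 and 205 (Grhl3-/-) at P0. Other cells held 25.8 to 78.9, 25.7 to 64.2 and 244 to 285 at the 3 ages. Epcam was thus lower in positive than in other cells in each of the 12 libraries.

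**Figure D1:**
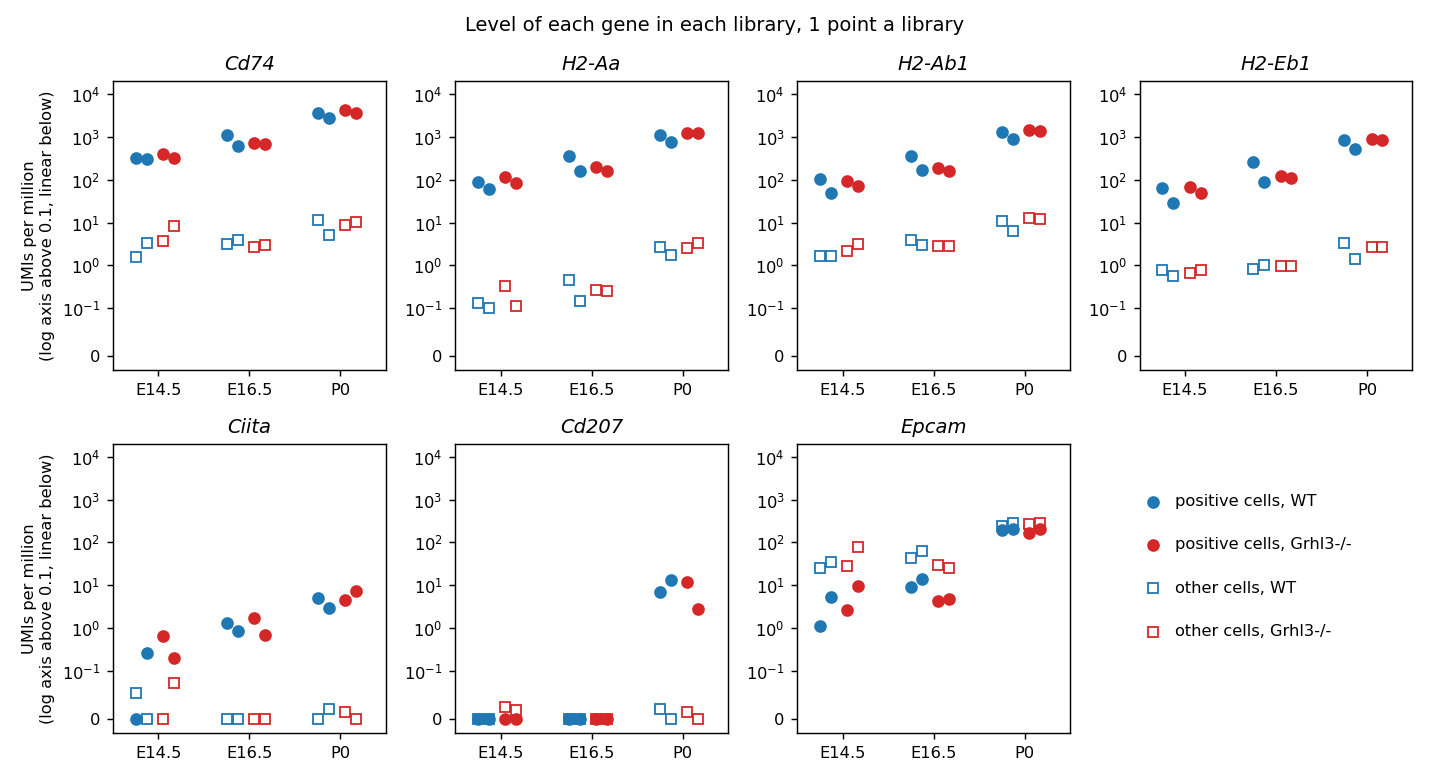
CPM of the 7 genes (vertical axis, logarithmic above 0.1 and linear below) by age (horizontal axis) in positive cells (filled circles) and other cells (open squares), 1 point per library, WT in blue and Grhl3-/- in red. Cd74, H2-Aa, H2-Ab1 and H2-Eb1 are higher in positive than in other cells in all 12 libraries, Cd207 is at 0 in the positive cells of the 8 embryonic libraries, and Epcam is lower in positive than in other cells in all 12 libraries.

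Whether these rises exceeded the spread between libraries was tested with the quasi-likelihood test of edgeR on counts summed per library, with p-values adjusted by Benjamini-Hochberg over all 12736 genes tested. Between E16.5 and P0 in WT the 4 structural class II genes and Epcam rose, in a comparison that called 51.8% of all genes and 25.7% as higher, so a call alone does not set these genes apart. Cd74 rose by a log2 fold change of 1.92 ± 0.24 (SE, adjusted p = 4.62e-05), H2-Aa by 1.81 ± 0.33 (adjusted p = 0.000716), H2-Ab1 by 2.03 ± 0.36 (adjusted p = 0.000647) and H2-Eb1 by 1.99 ± 0.43 (adjusted p = 0.00239), while the median of all genes was 0.01. Without E16.5 WT 1, the library with the high class II level, the rises of H2-Aa, H2-Ab1 and H2-Eb1 were 2.52, 2.71 and 2.93. Epcam rose by 4.16 ± 0.36 (adjusted p = 3.53e-06). In other cells of WT Epcam went from 44.2 and 64.2 CPM at E16.5 to 244 and 285 at P0. Keratinocyte markers in WT positive cells went from 3342 and 4180 CPM to 10933 and 10265. The part of keratinocyte RNA in the Epcam rise was not tested. Ciita, at 0.694 to 1.75 CPM at E16.5, passed the filter on low counts through its P0 libraries alone, so it is left out of these calls. It stood at 1.80 ± 0.61, and DESeq2 did not call it (adjusted p = 0.0874).

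DESeq2 called 5 of the 7 members in WT, with neither Ciita nor Cd207 among them. Cd207 had 0 UMIs at E16.5 and passed the filter on low counts through its P0 libraries alone, so it too is left out and its rise is given as a limit. Against 3 counts over the 2 E16.5 WT libraries, its P0 WT level was at least 30.1-fold higher, a limit that ran from 13.1 to 36.6 with 1 library left out, an alternative added after seeing the data (13.1 without E16.5 WT 1, 17.0 without E16.5 WT 2 and 19.2 without P0 WT 2). In Grhl3-/- skin the same comparison gave at least 26.1-fold, and DESeq2 did not call Cd207 there. This limit was 9.95 without P0 Grhl3-/- 1, 43.7 without P0 Grhl3-/- 2, 13.8 without E16.5 Grhl3-/- 1 and 12.3 without E16.5 Grhl3-/- 2.

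In Grhl3-/- skin the structural class II genes and Epcam rose between E16.5 and P0 too, where 51.4% of all genes were called and 25.2% were higher. The log2 fold changes were 2.55 ± 0.24 for Cd74, 2.83 ± 0.34 for H2-Aa, 3.07 ± 0.38 for H2-Ab1 and 2.95 ± 0.45 for H2-Eb1, with adjusted p-values from 6.14e-06 to 0.000193 in edgeR. Epcam rose by 5.40 ± 0.40 (adjusted p = 1.03e-06 in edgeR). In other cells of Grhl3-/- Epcam went from 29.4 and 25.7 CPM at E16.5 to 261 and 283 at P0. Keratinocyte markers in Grhl3-/- positive cells went from 1645 and 996 CPM to 8798 and 8151. The part of keratinocyte RNA in this rise was not tested either. Ciita, which here too passed the filter on low counts through P0 alone, is left out of these calls. It stood at 2.34 ± 0.53, and at 3.11 without E16.5 Grhl3-/- 1.

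Between E14.5 and E16.5 in WT, 5 of the 7 genes rose, where 12.5% of all genes were called and 6.75% were higher. These were Cd74 (log2 fold change 1.47 ± 0.23), H2-Aa (1.86 ± 0.34), H2-Ab1 (1.83 ± 0.37), H2-Eb1 (1.87 ± 0.45) and Epcam (1.89 ± 0.56), with adjusted p-values of 0.00342 to 0.0485 in edgeR. Keratinocyte markers in the same WT positive cells summed to 173 and 342 CPM at E14.5 and 3342 and 4180 at E16.5. Their part in the Epcam rise was not tested. Ciita, with 1 UMI in the WT libraries at E14.5, did not pass (adjusted p = 0.119), and Cd207 had no UMI at either age. Calls in this step depended on single libraries. Without E14.5 WT 2 the count of calls fell to 2 (Cd74 and Epcam, the latter at 3.27), while H2-Aa, H2-Ab1 and H2-Eb1 still stood at 1.60, 1.39 and 1.40 (adjusted p = 0.0650, 0.0764 and 0.147 in edgeR), and without E16.5 WT 1 it fell to 2 (Cd74 and H2-Aa, the latter at 1.18, while H2-Ab1 and H2-Eb1 stood at 1.19 and 0.96). Epcam was also lost without E14.5 WT 1 (adjusted p = 0.260) and without E16.5 WT 2 (adjusted p = 0.214), by DESeq2 (adjusted p = 0.0778), with a gate of 1 UMI (adjusted p = 0.184) and without likely doublets (adjusted p = 0.208), where H2-Eb1 was lost too (1.79, adjusted p = 0.0595), and without E14.5 WT 1 H2-Ab1 and H2-Eb1 stood at 2.49 and 2.61. E16.5 WT 1 held 36 cells with 10 or more class II UMIs, whereas E16.5 WT 2 held 13.

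**Figure D2:**
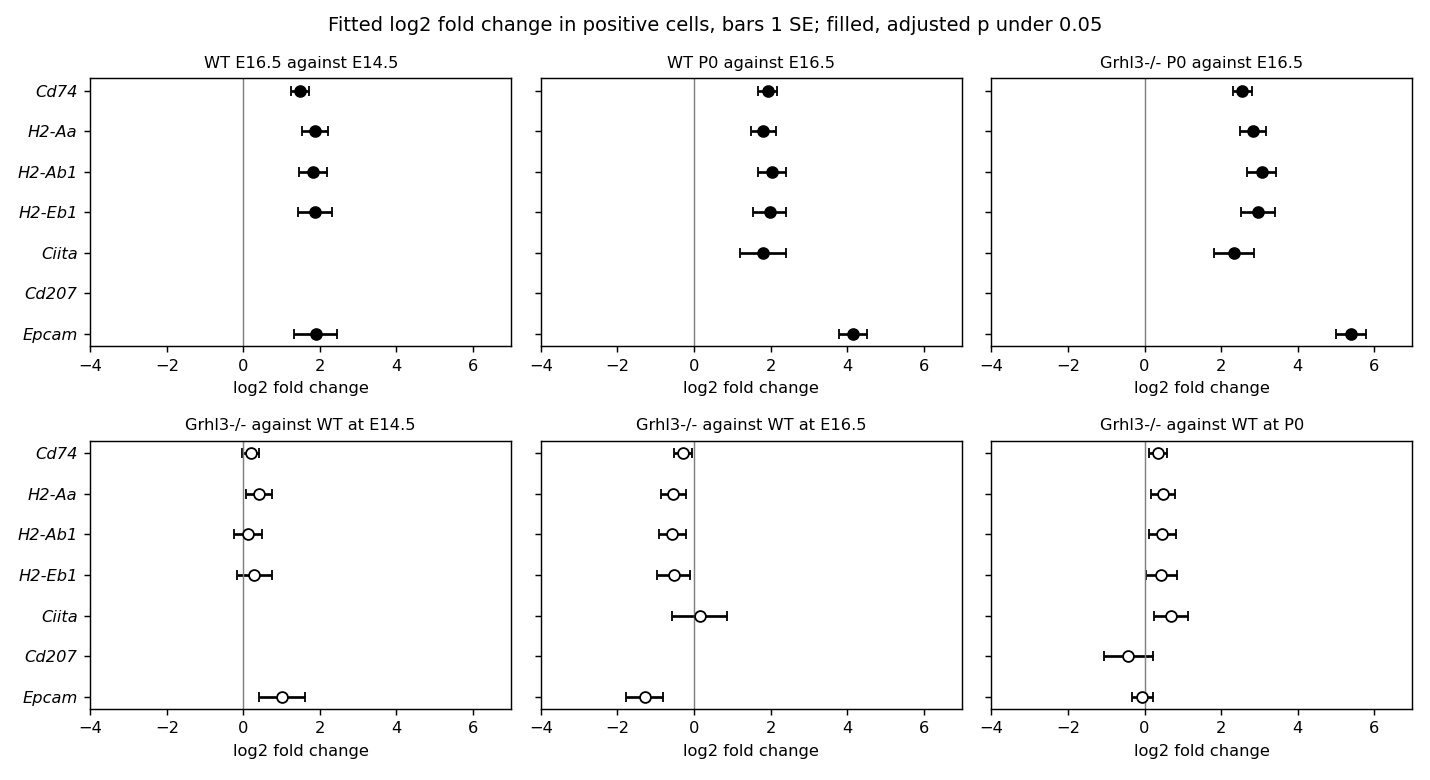
Fitted log2 fold changes in positive cells (horizontal axis, bars 1 SE) for the genes (vertical axis) in 6 comparisons, filled where the adjusted p was under 0.05. Cd207 is drawn only at P0 between genotypes, since its embryonic libraries were at 0, and Ciita is left out of the comparisons that use E14.5. In P0 against E16.5 Ciita passed the filter on low counts through P0 alone. Age comparisons lie to the right of 0 and no genotype comparison has a filled point.

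In the 12 libraries with the gate and the filter on low counts as given above and no replicate block, no genotype comparison called any of the 7 genes. Several were called without that filter, and H2-Ab1 and H2-Eb1 over the 3 ages with a gate on C1q alone, described below. At P0 0 of 7 were called, where 13.2% of all genes were, with none at an unadjusted p under 0.05 in edgeR and 0 calls by DESeq2, which called 10.4% of all genes. The class II genes of the 2 Grhl3-/- libraries were the upper 2 of the 4 values for H2-Aa, H2-Ab1 and H2-Eb1 and overlapped WT for Cd74. With 2 libraries a side this order stands as a description, and the share of all genes ordered so was not counted. The log2 fold changes of Grhl3-/- over WT were 0.35 ± 0.23 (Cd74), 0.48 ± 0.32 (H2-Aa), 0.46 ± 0.35 (H2-Ab1), 0.44 ± 0.41 (H2-Eb1) and 0.68 ± 0.45 (Ciita), with adjusted p-values from 0.330 to 0.511. Cd207 stood at -0.42 ± 0.64 (adjusted p = 0.710) and Epcam at -0.06 ± 0.28 (adjusted p = 0.926). Without the filter on low counts 4 members were called at P0 (12.3% of all genes), with adjusted p = 0.0312 for Cd74, 0.00530 for H2-Aa, 0.00687 for H2-Ab1 and 0.0144 for H2-Eb1 in edgeR. With the Chromium v1 library as a further P0 WT library the sign of these 4 genes turned, to -0.34, -0.33, -0.45 and -0.18.

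At E16.5 the 4 class II genes had values of the opposite sign, from -0.57 ± 0.35 for H2-Ab1 to -0.28 ± 0.23 for Cd74, and 0 of the 6 members with counts were called where 0.275% of all genes were. With the gate on C1q alone the sign turned, to 1.47 for H2-Ab1, 2.58 for H2-Aa, 2.91 for H2-Eb1 and 1.0 for Cd74, again with 0 calls (adjusted p from 0.0812 to 0.123 in edgeR for these 4 genes). Epcam, at -1.29 ± 0.49, was the 1 member with an unadjusted p under 0.05 (adjusted p = 0.285 in edgeR), and DESeq2 called 0 (0.707% of all genes). In other cells Epcam was lower in Grhl3-/- too, at 29.4 and 25.7 CPM against 44.2 and 64.2 in WT. Keratinocyte markers in positive cells summed to 1645 and 996 CPM in Grhl3-/- and 3342 and 4180 in WT, and their part in the Epcam difference was not tested. Without E16.5 WT 1 the values of H2-Ab1, H2-Aa, H2-Eb1 and Cd74 were 0.093, 0.16, 0.40 and 0.22. Without the filter on low counts 4 members, all lower in Grhl3-/-, were called (3.29% of all genes called), with adjusted p = 0.00430 for H2-Ab1, 0.00945 for H2-Aa, 0.0164 for H2-Eb1 and 3.74e-05 for Epcam in edgeR. At E14.5 (0.0157% of all genes called) and over the 3 ages together (0.542% called) edgeR called 0 members, with 0 at an unadjusted p under 0.05 and 0 by DESeq2 (0.0628% and 6.76% of all genes).

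The change of the genotype difference between E16.5 and P0 was tested as an interaction. It called 0 members, where 2.85% of all genes were called, with 1 member at an unadjusted p under 0.05 and 0 calls by DESeq2 (6.14% of all genes). Estimates were 0.63 ± 0.32 for Cd74, 1.02 ± 0.45 for H2-Aa, 1.03 ± 0.50 for H2-Ab1, 0.97 ± 0.59 for H2-Eb1 and 1.23 ± 0.57 for Epcam (adjusted p from 0.229 to 0.387 in edgeR). Without the filter on low counts 5 members were called, where 6.81% of all genes were. These comparisons share libraries with those of age above.

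The positive cells were also set against the other cells of the same libraries, with the 4 gate genes left out. At P0 the 4 structural class II genes and Epcam differed, where 55.5% of all genes were called. Ciita and Cd207, with 2 UMIs each in the other cells of the 4 P0 libraries, passed the filter on low counts through the positive cells and are given by their levels above. Cd74 was higher by a log2 fold change of 8.91 ± 0.14, H2-Aa by 8.89 ± 0.11, H2-Ab1 by 7.11 ± 0.09 and H2-Eb1 by 8.50 ± 0.12, with adjusted p-values from 3.13e-10 to 4.58e-10 in edgeR. Epcam was lower, with a log2 fold change of -0.28 ± 0.07 (adjusted p = 0.0120 in edgeR), a call lost without P0 Grhl3-/- 2 (adjusted p = 0.0564) and without the library block (0.103).

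The same 5 genes differed at E16.5 (64.1% of all genes called) and at E14.5 (72.9% called), while Ciita had 0 UMIs in the other cells at E16.5. The class II genes were higher and Epcam was lower at both ages. At E16.5 the log2 fold changes ranged from 6.27 ± 0.16 for H2-Ab1 to 9.80 ± 0.13 for H2-Aa, and that of Epcam was -2.20 ± 0.12.

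H2-Ab1 had the smallest excess of the 4 structural genes at each age, and in other cells it stood high against H2-Aa. In C1q-bearing cells with 10 or more class II UMIs, H2-Ab1 gave 1.10 to 1.16 UMIs per H2-Aa UMI in the 4 P0 libraries. In other cells the ratio was 3.59 to 5.01 at P0 and 6.64 to 27.7 in the embryonic libraries. The mast cell gene bearing cells of the embryo held 84 H2-Ab1 UMIs against 1 of H2-Aa at E14.5 and 49 against 1 at E16.5. The ratio thus differed between cell types in the same libraries, and whether part of the other-cell UMIs is RNA released by class II cells was not tested.

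Cd74 likewise reached beyond the class II cells. Among C1q-bearing cells with fewer than 3 class II UMIs, a limit that fixes their H2 counts but not Cd74, Cd74 stood at 60.5 to 98.7 CPM in the E14.5 libraries, 82.3 to 145 at E16.5 and 665 to 1008 at P0. Other cells that gave 1% or more of their UMIs to keratinocyte genes held 4.99 and 5.21 (WT) and 11.8 and 12.7 (Grhl3-/-) CPM of Cd74 at E14.5, 6.72 to 15.2 at E16.5 and 4.68 to 10.7 at P0, and those defined likewise by fibroblast genes held 0.207 to 1.13 at E14.5 and 0.857 to 1.26 at E16.5. Keratinocyte gene bearing cells exceeded the fibroblast gene bearing ones in each of the 8 embryonic libraries. These cell classes, and those below, were set after values had been seen and carry no test.

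The rise in class II level came with a rise in the number of cells that carried it. After each cell was thinned to 2000 UMIs, 4.23 and 3.87% of positive cells in WT and 6.26 and 3.93% in Grhl3-/- held a UMI of H2-Aa, H2-Ab1 or H2-Eb1 at E14.5. At E16.5 the shares were 8.37 and 4.23% in WT and 6.18 and 5.99% in Grhl3-/-, and at P0 39.9 and 27.7% in WT and 41.2 and 43.2% in Grhl3-/-. No positive cell fell under 2000 UMIs. The lowest P0 library lay above every embryonic one.

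In other cells thinned the same way the share was 0.452 to 1.23% before birth and 2.06 to 3.96% at P0. Without thinning the positive shares were 8.71 to 12.7% and 40.2 to 55.8%. The P0 libraries exceeded the embryonic ones by 32.6 percentage points (38.0 ± 6.98% against 5.38 ± 1.60%, SD, n = 4 and 8 libraries, two-sided exact permutation test, p = 0.00202, the smallest that 495 arrangements can give).

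Grhl3-/- exceeded WT by 3.07 percentage points over the ages (exact permutation within ages, two-sided, p = 0.194, with 0.00926 as the smallest possible). The difference passed without E16.5 WT 1 (3.76 points, exact p = 0.0185) and among C1q-bearing cells alone (4.09 points, exact p = 0.0463). Leaving out P0 WT 2, the P0 library with the lowest share, brought it to 1.04 points (exact p = 0.370), and leaving out P0 WT 1 to 5.09 points (exact p = 0.139).

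Most class II UMIs of the positive cells sat in cells with 10 or more of them, which were 2.08 to 5.91% of the positive cells in the embryonic libraries and 22.9 to 34.5% at P0. These cells numbered 44 at E14.5, 96 at E16.5 and 832 at P0 and held 93.4 to 99.0% of the class II UMIs of the positive cells in every library, while 0 other cells reached this count before birth and 3 did at P0. The cells that held them changed in C1q. Before birth 38 of 44 and 88 of 96 such cells had fewer than 3 C1q UMIs, whereas at P0 795 of 832 had 3 or more.

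C1q-bearing cells accordingly held 0.983 to 17.6% of the class II UMIs of positive cells in the embryonic libraries and 89.9 to 95.7% at P0. In the C1q-bearing cells alone, H2-Aa gave 16 and 13 (WT) and 43 and 64 (Grhl3-/-) UMIs at E14.5, 13 and 6 (WT) and 17 and 168 (Grhl3-/-) at E16.5, and 4506 to 8855 at P0. With the gate on C1q alone the rises between E16.5 and P0 in WT were 8.01 for H2-Aa, 6.93 for H2-Ab1, 8.46 for H2-Eb1 and 5.13 for Cd74, and 6.06, 6.06, 6.15 and 4.63 in Grhl3-/-, each of them called (48.8% and 50.4% of all genes called). The E16.5 WT libraries held only 13 and 6 UMIs of H2-Aa and 6 and 4 of H2-Eb1 in these cells. Those WT sizes thus stand against a floor. The embryonic step in WT was lost for the class II genes under that gate, with Epcam alone passing (2.87, adjusted p = 0.0489 in edgeR, 4.17% of all genes called). That call set 34 and 21 Epcam UMIs at E16.5 against 3 and 5 at E14.5. Over the 3 ages, 2 members were then called higher in Grhl3-/-, H2-Ab1 (1.44 ± 0.25, adjusted p = 0.0256) and H2-Eb1 (2.39 ± 0.46, adjusted p = 0.0414), where 0.539% of all genes were called. Their E16.5 UMIs in C1q-bearing cells were 25 and 21 (WT) and 48 and 159 (Grhl3-/-) for H2-Ab1 and 6 and 4 (WT) and 16 and 107 (Grhl3-/-) for H2-Eb1, and E16.5 Grhl3-/- 2 held 5 of the 8 C1q-bearing cells with 10 or more class II UMIs at that age. At E14.5 the H2-Ab1 UMIs were 12 and 9 (WT) and 33 and 67 (Grhl3-/-). Those of H2-Eb1 were 3 and 1 (WT) and 15 and 38 (Grhl3-/-), so its call rests on few WT UMIs.

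**Figure D3:**
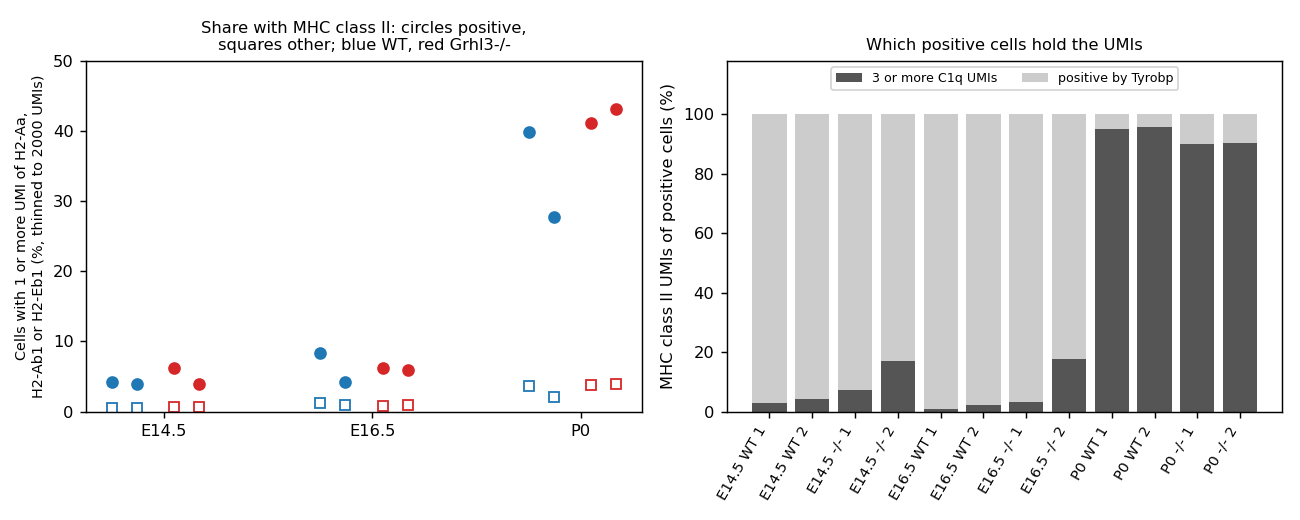
Left, percent of positive cells (circles) and other cells (squares) with a class II UMI after thinning to 2000 UMIs (vertical axis) by age, 1 point per library. Right, percent of the class II UMIs of positive cells that lay in cells with 3 or more C1q UMIs (dark) or in cells positive through Tyrobp (light), 1 bar per library; the dark part is at most 17.6% before birth and at least 89.9% at P0.

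The embryonic class II cells without C1q and the P0 class II cells with it differed in what else they expressed. The 88 such cells at E16.5 held 433 CPM of Ccr2, a chemokine receptor of monocytes, 971 of Plac8, 73.1 of Flt3, a receptor of dendritic cells and their precursors, and 13.8 of the chemokine Pf4, high in embryonic macrophages. Of other monocyte, neutrophil and dendritic cell genes they held 3174 CPM of Lyz2 and 761 of Napsa, but 0 UMIs of S100a8, 4.14 CPM of Itgax and 13.8 of Cd209a. The 795 cells at P0 held 45.9 of Ccr2, 0.308 of Plac8, 19.0 of Flt3, 86.3 of Pf4, 666 of Lyz2, 182 of Napsa, 0.617 of S100a8, 18.3 of Itgax and 0 of Cd209a. Ltc4s, a Langerhans list gene for leukotriene synthesis, was at 4.14 CPM in the former and 338 in the latter, and C1q-bearing cells with fewer than 3 class II UMIs held 137 at E14.5, 138 at E16.5 and 189 at P0. Dendritic cell markers as a list (Flt3, Zbtb46, Xcr1, Clec9a, Cd209a and Itgax) summed to 3.90 to 10.2 CPM in embryonic and 10.7 to 27.3 in P0 positive cells, with 3 to 5 of the 6 detected per library. How far the shift between these cell kinds carries the class II rise was not tested.

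Cd207 sat inside the class II cells. Of the 58 Cd207-bearing positive cells at P0, 53 held 10 or more class II UMIs, 43 had 3 or more C1q UMIs and 51 had an Epcam UMI. Among all 2687 positive cells at P0, 832 held 10 or more class II UMIs and 2224 had 3 or more C1q UMIs. An Epcam UMI was found in 39.7 to 48.3% of the positive cells of a P0 library. The highest cell, in P0 WT 1, held 18 Cd207 UMIs, and 18 cells held 5 or more. In these 58 cells Epcam stood at 656 and 684 CPM in WT and 1020 and 744 in Grhl3-/-.

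Epcam was set against Krt14, a keratin that Langerhans cells do not make, since P0 positive cells carried 958 to 1859 Krt14 CPM even where class II was low. Cells rich in keratinocyte genes gave 4.07 to 8.32 Epcam UMIs per 100 Krt14 UMIs in the 4 P0 libraries. C1q-bearing cells with fewer than 3 class II UMIs gave 5.40 to 11.9, a range that overlapped the keratinocyte one. C1q-bearing cells with 10 or more class II UMIs gave 66.0 and 81.9 in WT and 33.2 and 42.5 in Grhl3-/-.

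Cd207-bearing cells gave 106 and 100 in WT and 191 and 180 in Grhl3-/-, and class II cells without C1q, 3 to 15 per library, gave 136 to 925. The class II cells therefore held more Epcam per Krt14 than keratinocytes in all 4 libraries. Within the C1q-bearing class II cells Epcam was at 355 and 469 CPM in WT and 237 and 203 in Grhl3-/-, without overlap, which with 2 libraries a side stands as a description.

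**Figure D4:**
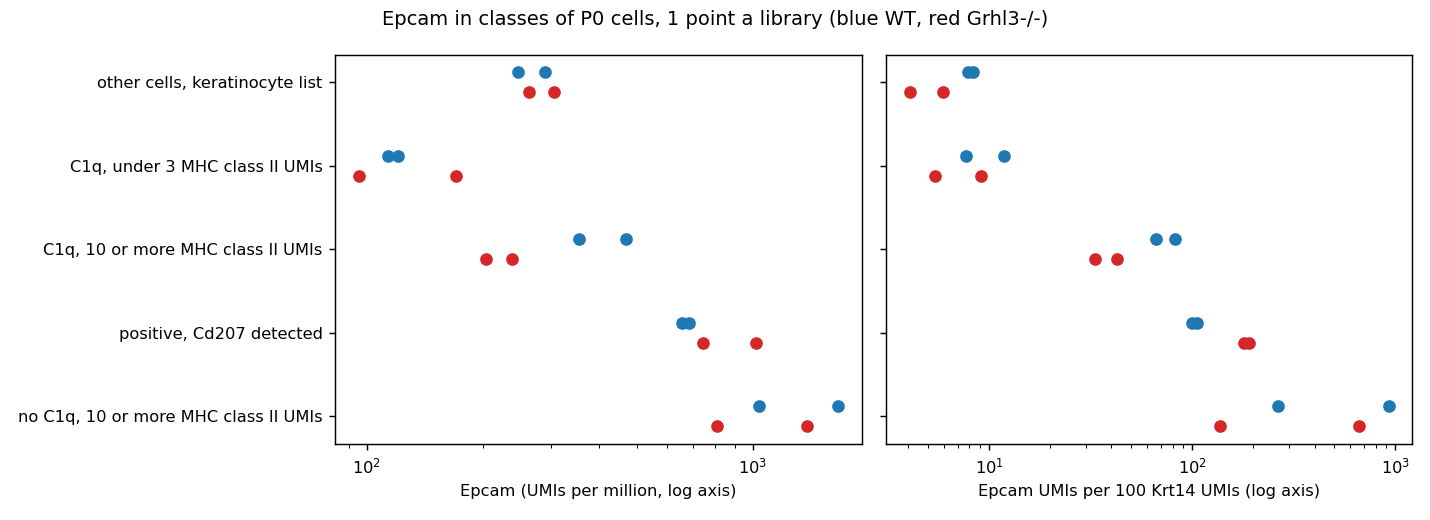
Epcam in classes of P0 cells (vertical axis), as CPM (left) and per 100 Krt14 UMIs (right), both on logarithmic axes, 1 point per library, WT in blue and Grhl3-/- in red. The ratio is 4.07 to 8.32 in cells rich in keratinocyte genes and at least 33.2 in each class with many class II UMIs.

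Partner genes were counted from lists chosen by function. In the list of peptide loading and co-stimulation (15 genes, 13 tested), 6 rose and 0 fell between E16.5 and P0 in WT, with a median log2 fold change of 0.55 against 0.01 over all genes. In that comparison 51.8% of all genes were called and 25.7% were higher, and whether these 6 rises of 13 exceed that share was not tested. The 6 of 13 and 4 of 11 calls of the next lists, in both directions, do not set those lists apart. The largest rises were of the invariant chain protease Ctss (2.13 ± 0.17), the peptide exchange factor chains H2-DMa (2.05 ± 0.16) and H2-DMb2 (1.5 ± 0.24), and the protease Ctsh (1.02 ± 0.15). In Grhl3-/- 5 rose and 2 fell, where 51.4% of all genes were called and 25.2% were higher. In the embryonic step of WT, 4 genes of the list rose and 0 fell (12.5% of all genes called, 6.75% higher), namely H2-DMa (1.12 ± 0.16), H2-DMb1 (2.04 ± 0.29), H2-DMb2 (1.73 ± 0.33) and Ctsh (0.68 ± 0.15). Those that fell in Grhl3-/- between E16.5 and P0 were the proteases Ctsl (-1.21 ± 0.15) and Lgmn (-0.81 ± 0.13).

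Of 13 genes for class II transcription 4 rose and 2 fell in WT, with a median of -0.11. They included the interferon gamma receptor chain Ifngr1 (1.36 ± 0.17), Irf1 (-0.79 ± 0.24) and the RFX subunit Rfxap (0.53 ± 0.15). Of the MHC class I list 1 gene was higher (its activator Nlrc5, 2.37 ± 0.74) and 3 were lower of 11 tested (Calr, -1.01 ± 0.11, Pdia3, -0.78 ± 0.12, and H2-D1, -0.40 ± 0.14). Nlrc5 did not pass the filter on low counts where positive and other cells were compared before birth. Its call thus rests on the P0 libraries.

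The Langerhans cell list (20 genes, 19 tested) had 9 genes that rose and 6 that fell in WT, where 51.8% of all genes were called, with a median of 0.52. The largest values were of the integrins Itgae (6.79 ± 0.65), also a gene of epidermal T cells, and Itgax (4.53 ± 0.64), both with few UMIs at E16.5, E-cadherin (Cdh1, 3.80 ± 0.42), also a keratinocyte gene, and the transcription factor Runx3 (3.23 ± 0.13). Itgae and Itgax did not pass the filter on low counts where positive and other cells were compared before birth. Their calls, which are among the 9, thus rest on the P0 libraries. Id2, a factor that Langerhans cells need, was among those that fell (-1.23 ± 0.18). At E14.5, an age outside this comparison, cells with mast cell genes held 480 CPM of Id2 and 53.4 of Runx3, and cells with T cell receptor complex genes 505 and 68.4. C1q-bearing cells with fewer than 3 class II UMIs held 138 of Id2 and 4.92 of Runx3 at that age. Between E14.5 and E16.5 in WT Id2 rose by 1.23 ± 0.18, so these levels need not hold at E16.5. The part of mast cells, not found at P0, in the changes from E16.5 to P0 was not tested. T or NK markers summed to 47.9 to 73.7 CPM in embryonic and 315 to 920 in P0 positive cells, and keratinocyte markers to 173 to 4180 and 8151 to 10933. In other cells the keratinocyte markers summed to 2017 to 24108 before birth and 15425 to 25833 at P0. The part of T or NK and keratinocyte RNA in these rises was not tested. In the migratory dendritic cell list 2 genes rose (Cd83, 2.58 ± 0.26, and Flt3, 1.63 ± 0.39) and 2 fell (the actin bundler Fscn1, -2.67 ± 0.26, and Zbtb46, -2.41 ± 0.59) of 7 tested.

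Between genotypes 0 list genes were called at E14.5, where 0.0157% of all genes were, and 1 at E16.5 (Ctsl, 0.96 ± 0.15), where 0.275% were. At P0 13 of the 63 list genes tested were called. Lower in Grhl3-/- were Flt3 (-2.59 ± 0.40), Ifngr1 (-0.97 ± 0.16), Ifngr2 (-0.46 ± 0.13), Ltc4s (-0.84 ± 0.19), Klf4 (-0.63 ± 0.15), Runx3 (-0.58 ± 0.11) and Ctsl (-0.55 ± 0.15).

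Higher were Fscn1 (1.05 ± 0.27), the class I chaperones Calr (0.67 ± 0.11) and Pdia3 (0.41 ± 0.12), Irf8 (0.67 ± 0.19) and the immunoproteasome subunits Psmb8 (0.50 ± 0.14) and Psmb9 (0.43 ± 0.13). A share of 13.2% of all genes was called in that comparison. C1q-bearing cells were 88.0 and 84.1% of the positive cells in P0 WT and 81.3 and 78.9% in P0 Grhl3-/-. T or NK markers summed to 315 and 718 CPM in WT and 920 and 777 in Grhl3-/-. The part of this makeup in these calls was not tested. The interaction called Ctsl (-1.51 ± 0.22), Ifngr1 (-1.18 ± 0.23) and Spi1 (-0.76 ± 0.18), 3 of the 63 list genes, where 2.85% of all genes were called.

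Over the 12 libraries, the genes whose log2 level followed the mean of Cd74, H2-Aa, H2-Ab1 and H2-Eb1 most closely were H2-DMa (Pearson r = 0.986), H2-DMb1 (0.983), Fam213a (0.977), Golga7b (0.977) and H2-DMb2 (0.975), among 12732 genes. For Cd207 they were Kir3dl1 (0.992), Foxe1 (0.986), Ccdc122 (0.985), Itln1 (0.984) and Trp53inp2 (0.982), among 12735. The libraries fall into ages, so these are descriptions of a shared step in age. Cd207 had 0 UMIs in the positive cells of the 8 embryonic libraries, so its r sets P0 levels against a floor.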

How the data were processed

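The authors deposited, per library, a gene by cell matrix of raw UMI counts with gene and barcode lists, made per the labels with Cell Ranger 1.3.1 on mm10 and followed by Seurat; the methods give another Cell Ranger version. Cells with 600 to 4800 genes (embryonic) or 900 to 7700 genes (P0) and at most 10% mitochondrial UMIs were kept. UMIs of positive cells were summed per library, and 12 libraries were fitted with edgeR 4.0.16 (quasi-likelihood test, TMM, filterByExpr, a mean per group, R 4.3.3) with Benjamini-Hochberg adjustment at 0.05, the SE being the log2 fold change over the root of F. Positive and other cells were compared within an age with the library as a block. DESeq2 1.42.0 was an alternative. Shares used exact permutation tests in scipy 1.17.1, intervals and limits covering counting error only. Doublets were kept, and the highest Scrublet scores (scanpy 1.11.5, 0.8% of cells per 1000) were left out as an alternative. Other alternatives changed the size factors, filter, gate, mitochondrial limit, thinning, block and libraries. The count tests were tested on simulated data. Per the methods the libraries came from separate animals that were littermates, so p-values measure the spread between these libraries and not that between litters.

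Members, partner lists and tests were chosen with earlier results of these data known. All 7 members were named. Of list genes, up to 4 per list with the largest changes among those called in WT P0 against E16.5 were named, and all those called between genotypes, as were the 5 genes that best followed class II and the 5 that best followed Cd207. One gene that this rule names is not reported here. Other genes (those called in the embryonic step or lower at P0 in Grhl3-/-, Id2, and the genes that describe cell classes) were chosen after their values were seen. Same-numbered WT and Grhl3-/- libraries of an age deviated with r = 0.05, -0.19 and -0.16 at E14.5, E16.5 and P0, so the numbers were not taken as pairs.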

Additional observations from a re-analysis of the deposited data

Results flagged for a closer look

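The Chromium v1 P0 WT library, alone in its group and used in the report only as an alternative, held a signal of all 7 genes in its 312 positive cells. Cd74 stood at 9513 CPM, H2-Aa at 3100.4, H2-Ab1 at 4056, H2-Eb1 at 1842, Ciita at 11.7, Cd207 at 24.4 and Epcam at 273. Each value lay above those of the 4 other P0 libraries, and the share of all genes that did so was not counted. In the positive cells of the v1 library keratinocyte markers (22771 CPM) and T or NK markers (1840) also lay above those libraries. Macrophage markers (1683) lay within their range and melanocyte markers (221) below it. Its other cells held 34.7 CPM of Cd74, also above the 5.26 to 11.2 of those libraries. Epcam was higher in its positive than in its other cells (273 against 236 CPM), whereas it was lower in the other 12 libraries. The difference from them was not tested, and chemistry and library cannot be told apart.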

How the results depend on the processing

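Counts of called members kept to within 1.5 times their main value except as follows and under the crossed block given last. Between E14.5 and E16.5 in WT the 5 calls became 1 with the gate on C1q alone and 3 without likely doublets, and leaving out 1 library gave 2 to 4. Between genotypes 0 calls became 4 at E16.5, 4 at P0 and 5 in the interaction without the filter on low counts, and 2 over the 3 ages with the gate on C1q alone. The cause was not tested. The share difference between genotypes passed with C1q alone (4.09 points) and without E16.5 WT 1 (3.76 points), over a range of 1.04 to 5.09 points with 1 library left out.

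Signs turned for H2-Aa between E14.5 and E16.5 in WT with C1q alone (-0.49). Between genotypes at E16.5 they turned with C1q alone for H2-Ab1 (1.47), H2-Aa (2.58), H2-Eb1 (2.91) and Cd74 (1.0), and with 1 library left out H2-Ab1 ranged from -1.01 to 0.093, H2-Aa from -1.0 to 0.16, H2-Eb1 from -1.08 to 0.40, Cd74 from -0.65 to 0.22 (each positive without E16.5 WT 1) and Ciita from -0.62 to 0.68, at -0.090 without E16.5 WT 2. At P0 they turned with the v1 library for H2-Ab1 (-0.45), H2-Aa (-0.33), H2-Eb1 (-0.18) and Cd74 (-0.34), for Epcam with a gate of 1 UMI (0.12) and for Cd207 without likely doublets (0.030). With 1 P0 library left out Epcam ranged from -0.19 to 0.087 and Cd207 from -1.87 to 0.30, at 0.16 without P0 WT 2.

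With the replicate block the counts of called members were 7, 7 and 5 between ages (WT and Grhl3-/- P0 against E16.5, WT E16.5 against E14.5) and 0 in each genotype comparison, as without it. Cd207 (0 UMIs at E16.5) and Ciita, which both passed the filter on low counts through P0 alone, are among the 7. A block with numbers crossed at E16.5 and P0, chosen after seeing the data, called 1 member between genotypes at E16.5 and 1 in the interaction. Depth limits Ciita, with 0 to 9 UMIs per embryonic library, and Cd207.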
